A study of Mus musculus with 2 samples.

Results

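Circular RNAs (circRNAs) of the Tbc1d and Dennd host genes were described in the intestinal libraries of a Lgr5 reporter study. The members were all entries whose host gene name begins with Tbc1d or Dennd followed by a digit. The rule uses names only, but it was chosen with earlier results of these data known. They comprised 35 of 8174 host genes, 25 Tbc1d and 10 Dennd, and 215 of 31496 listed circRNAs, of which 190 had at least 1 read across the back-splice junction. The cells came from intestine of mice of the strain Lgr5GFP-CreERT2, aged 2 months, and were sorted by flow cytometry into cells with Lgr5, labelled ISC, and cells negative for it, which carry the label non-ISC. The reporter reads the activity of the Lgr5 locus, and how many mice went into each fraction was not given in these sources. Total RNA was depleted of ribosomal RNA, and linear RNA was reduced with the exonuclease RNase R. Each fraction had 1 library, so differences below were never checked in a replicate and carry no p-value.

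In a circRNA the end of an exon is spliced back to the start of the same or an earlier exon, and a read over that back-splice identifies the circle. The proteins encoded by the host genes act on opposite sides of one switch. Rab GTPases mark membrane compartments and direct vesicle traffic when they carry GTP. DENN domain proteins, encoded by the Dennd genes, load GTP onto particular Rab proteins and so switch them on. TBC domain proteins, encoded by the Tbc1d genes, speed GTP hydrolysis by Rab proteins and switch them off, although some members lack that activity and serve as adaptors. In intestinal epithelium Rab traffic carries brush border proteins and lipoprotein particles, and in lymphocytes it recycles antigen receptors. How much linear transcript each host gene made is not in the values used here, so levels below are those of circRNAs only.

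The junctions that carry most of the results are printed first, because each is the sequence by which its circRNA is recognised. The sequences were read from GENCODE M21 transcripts on GRCm38, 5′ to 3′. Lower case letters are the end of the donor exon, and capitals are the start of the acceptor exon that follows it in the circle. Exon numbers are those of the first listed protein-coding transcript that has both ends (transcript 201 of each gene, except 202 for Dennd4c).
Dennd1b exons 5 to 8, chr1:139053346-139062971, plus strand: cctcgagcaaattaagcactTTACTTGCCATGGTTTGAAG
Dennd1b exons 3 to 8, chr1:139040000-139062971, plus strand: agcaaattaagcactGAAGTTCTGCAGAGC
Tbc1d14 exons 4 to 7, chr5:36519273-36525048, minus strand: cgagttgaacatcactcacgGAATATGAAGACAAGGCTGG
Tbc1d14 exon 2 alone, chr5:36571296-36572037, minus strand: tcacttctttacaagTTTCTTCTGGGACCA
Tbc1d14 exons 2 to 3, chr5:36543177-36572037, minus strand: aagaagacccagaagTTTCTTCTGGGACCA
Tbc1d5 exons 10 to 13, chr17:50917527-50920603, minus strand: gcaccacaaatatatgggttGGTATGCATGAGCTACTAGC
Tbc1d12 exons 2 to 3, chr19:38865616-38882774, plus strand: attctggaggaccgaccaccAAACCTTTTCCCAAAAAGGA
Dennd5b exons 15 to 17, chr6:149005166-149009900, minus strand: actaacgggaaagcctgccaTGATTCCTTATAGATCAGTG
Dennd4c exons 27 to 28, chr4:86836380-86837576, plus strand: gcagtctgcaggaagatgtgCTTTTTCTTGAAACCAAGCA
Tbc1d22a exons 6 to 8, chr15:86299647-86311841, plus strand: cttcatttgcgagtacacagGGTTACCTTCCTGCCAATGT
The 2 Dennd1b circles share their donor side, and 2 of the 3 Tbc1d14 circles share their acceptor side. For the Tbc1d14 circles that begin with exon 2 and the Dennd1b circle that begins with exon 3, 15 bases are shown on each side, because the acceptor exon starts outside the coding sequence of the transcript used. Elsewhere 20 coding bases are shown.
The most read circle of the whole group, Dennd1b exons 5 to 8, is coding sequence throughout and 316 nt long by annotation. Exon contents and lengths of circles, here and below, assume every annotated exon between the ends, since junction reads do not show inner exons.

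The ISC-labelled library held 156582 junction reads and the non-ISC-labelled library 76331, so that a count of 0 allows up to 3 reads, or 19.2 and 39.3 per 1000000 junction reads. A ratio divides the share of junction reads in the ISC-labelled library by that in the other, and its exact 95% interval covers counting error only. Markers went against the labels. Of 14 Lgr5 stem cell markers, 10 were at 0 reads in the ISC-labelled library and 4 in the non-ISC-labelled library, and the list summed to 45 reads against 176. Lgr5 itself had 0 reads against 7. Of 14 epithelial markers, 11 and 3 were at 0, with 7 reads against 311, and Epcam had 0 against 59. Of 20 T cell and leukocyte markers, 3 and 13 were at 0, with 7284 reads against 135, and Ptprc had 58 against 0. The groups are therefore called by their labels, every direction is one between these libraries, and the part of these markers in any result was not tested. When libraries are scaled by the totals that the deposited RPM values imply ("RPM totals"), all log2 ratios rise by 1.49, and results that turn are given where they stand.

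Taken over both families, Rab regulator circRNAs held a smaller share of the ISC-labelled library. They had 1278 reads there, 0.816% (0.772 to 0.862) of junction reads, and 958 reads in the non-ISC-labelled library, 1.26% (1.18 to 1.34). The ratio was 0.650 (0.598 to 0.708), turning to 1.83 with RPM totals, and it rested on Dennd1b and Tbc1d14, which held 57.1% and 71.9% of the members' reads in the respective libraries. Without those 2 genes the remaining 33 had 548 reads against 269, and their ratio of 0.993 (0.857 to 1.15) became 2.80 with RPM totals. The Tbc1d genes summed to 622 reads against 496. Their ratio of 0.611 (0.542 to 0.689) turned to 1.72 with RPM totals and to 1.07 without Tbc1d14. The Dennd genes summed to 656 against 462, and their ratio of 0.692 (0.614 to 0.781) turned to 1.95 with RPM totals. Without Dennd1b the Dennd ratio was 0.891 (0.707 to 1.13), and it turned to 2.51 with RPM totals. In bulk libraries such as these, fewer cells of a type and fewer circRNA molecules per cell cannot be told apart.

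**Figure D1:**
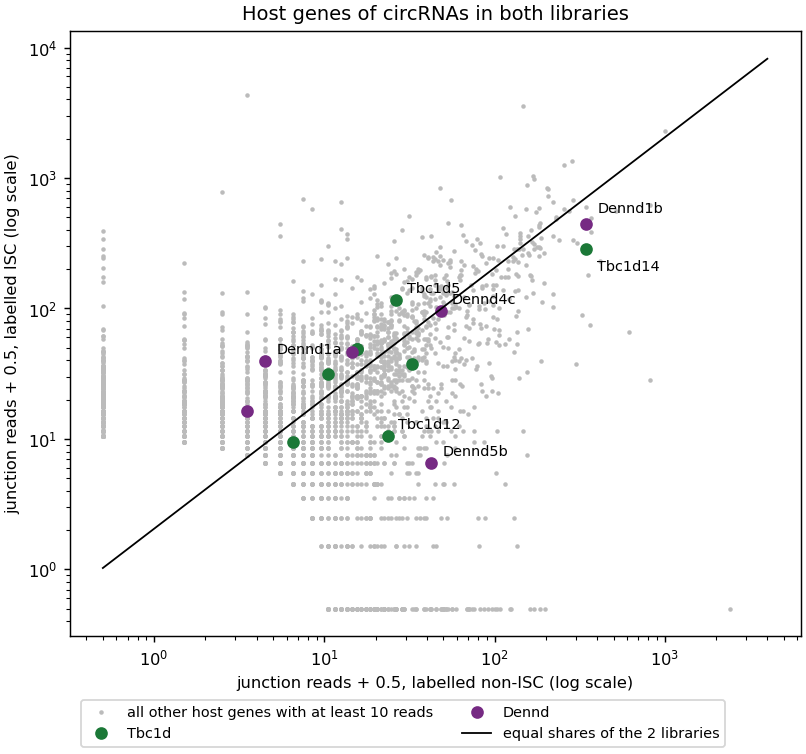
Junction reads plus 0.5 of every host gene with 10 or more reads in all, labelled non-ISC on the x axis and labelled ISC on the y axis, both log scales. Tbc1d genes are green, Dennd genes purple, and the line marks equal shares of the junction reads. Dennd1b and Tbc1d14 lie at the high end below the line, where they turn above 1 with RPM totals, and Dennd5b lies furthest below it among the members.

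To be called higher or lower, a host gene needed 10 or more reads in the pair of libraries, a difference of 2-fold or more and an interval without 1. Of 35 members, 34 had reads and 14 had at least 10, 8 Tbc1d and 6 Dennd. Tbc1d5 and Dennd1a were higher in the ISC-labelled library, and Tbc1d14, Tbc1d12 and Dennd5b were lower. These are 2 of 14 higher beside 26.7% of all 2920 host genes with enough reads, and 3 of 14 lower beside 22.7%. The remaining 9 were not called. With RPM totals 8 genes were higher (Dennd1a, Dennd4a, Dennd4c, Dennd6a, Tbc1d5, Tbc1d10c, Tbc1d20 and Tbc1d22a) and Dennd5b alone was lower. The shares of all host genes called with RPM totals, where every ratio rises, were not computed. The median log2 ratio of the 14 was 0.24, with quartiles of -0.79 and 0.64, beside a median of 0.16 over all host genes tested, with a lower quartile of -1.05 and an upper quartile of 1.52. The quartiles of the 14 genes lay inside those of all host genes tested.

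**Figure D2:**
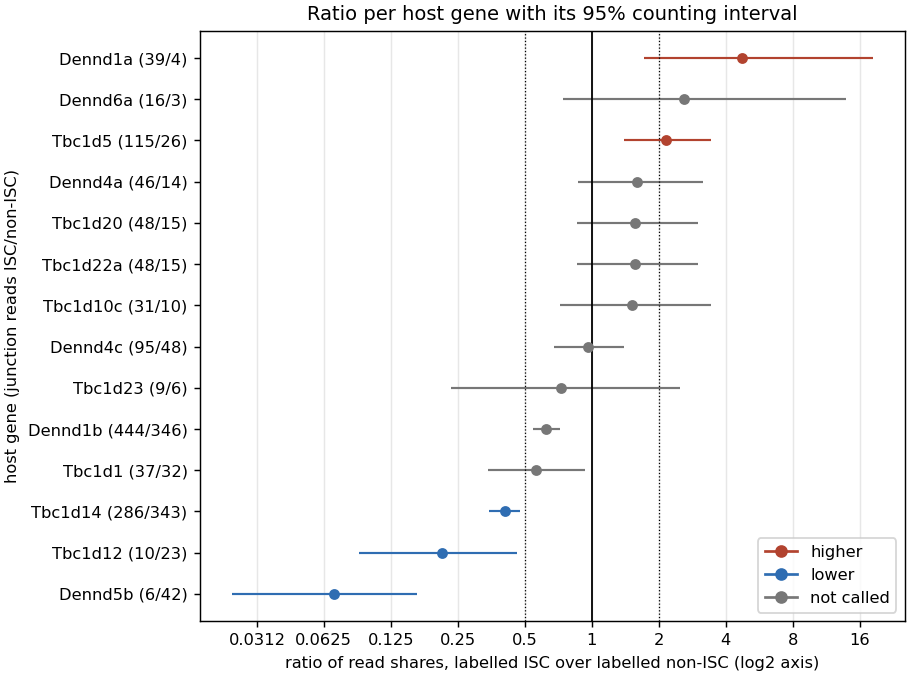
Ratio of read shares, labelled ISC over labelled non-ISC, on a log2 axis for the 14 Tbc1d and Dennd genes with at least 10 reads, with 95% exact counting intervals and the junction reads of both libraries beside each name. Dotted lines mark a ratio of 2 in either direction. The 2 genes called higher are red and the 3 called lower are blue. With RPM totals all ratios shift up together, and Tbc1d14, Dennd1b, Tbc1d1, Dennd4c and Tbc1d23 turn above 1.

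Among the exchange factors, Dennd1b (chromosome 1, 138963435 to 139178960, plus strand) carried the most circRNA reads of either family. Its protein acts on Rab35, and in mouse helper T cells it is known to control removal of the antigen receptor from the surface. Dennd1b had 444 reads, or 2836 per 1000000 junction reads (2578 to 3112), in the ISC-labelled library, and 346 reads, or 4533 (4068 to 5037), in the non-ISC-labelled library. It ranked as host gene number 37 and 12 of the respective libraries by junction reads. Its ratio, 0.626 (0.542 to 0.722), fell short of 2-fold and turned to 1.76 (1.53 to 2.03) with RPM totals. Over the 4 Dennd1b circRNAs with reads in both libraries there were 411 reads against 335, so few of its reads rest on missing entries.

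Dennd5b had the lowest ratio of the 14 members tested. It encodes an exchange factor of the Rab39 group, and mice without it secrete chylomicrons poorly from enterocytes. It had 6 reads on 3 circRNAs in the ISC-labelled library, 38.3 per 1000000 (14.1 to 83.4), and 42 reads on 13 circRNAs in the non-ISC-labelled library, 550.2 per 1000000 (396.6 to 744). The ratio was 0.0696 (0.0242 to 0.165), and it stayed at 0.196 (0.0681 to 0.464) with RPM totals. Its most read circle, exons 15 to 17, had 10 reads in the non-ISC-labelled library and no entry in the other. Only 1 of 15 Dennd5b circRNAs had reads in both libraries, with 2 against 6, so the ratio rests largely on entries missing from the ISC-labelled library and counted as 0. The epithelial markers, at 7 reads against 311, were low in the same library, and their part in the result was not tested.

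Dennd1a, a paralogue of Dennd1b and also an exchange factor for Rab35, had 39 reads on 9 circRNAs against 4 reads on 2. The levels were 249 per 1000000 (177 to 340.5) and 52.4 (14.3 to 134), a ratio of 4.75 (1.71 to 18.3). This call depended on how absent junction reads were treated. Its 2 leading circRNAs had 15 and 11 reads in the ISC-labelled library, and both had an entry with 0 junction reads in the other. In the deposited count column these circRNAs held 22 and 26 reads in the non-ISC-labelled library and 104 and 11 in the ISC-labelled library. On that column, scaled as RPM, the gene's ratio was 4.53 (3.50 to 5.94) and it was still called higher. Over the 1 Dennd1a circRNA with junction reads in both libraries there was 1 read against 2, which turned the direction, at a ratio of 0.244 (0.00413 to 4.68).

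The Dennd4 genes, exchange factors for Rab10, did not pass. Dennd4c had 95 reads on 15 circRNAs against 48 on 14, levels of 607 (491 to 742) and 629 (464 to 834) per 1000000, and its ratio of 0.965 (0.675 to 1.40) turned to 2.72 (1.90 to 3.93) with RPM totals. It had 21 circRNAs, as many as Tbc1d14, and 8 of them had reads in both libraries. Different ends of the gene led in the libraries. The circle of exons 27 to 28 had 30 reads and 5, a ratio of 2.92 (1.12 to 9.66), whereas exons 3 to 5 of transcript 201 (chromosome 4, 86777713 to 86781711) formed a circle with 2 against 12 and a ratio of 0.0812 (0.00883 to 0.365). These circles are named because they were the ones of the gene called higher and lower, so they are given as a description. Dennd4a had 46 reads against 14, a ratio of 1.60 (0.865 to 3.15). Its leading circle of exons 3 to 4 (chromosome 9, 64835954 to 64839144) had 16 against 7, and the circle of exons 2 to 5 had 10 against 0, where the entry of the non-ISC-labelled library has 10 reads in the count column. Dennd6a, whose protein acts on Rab14, had 16 against 3, a ratio of 2.60 (0.744 to 13.9) whose interval holds 1.

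The 4 other Dennd genes had at most 5 reads in all and were not tested. Dennd3 had 5 reads and Dennd2c 4 in the ISC-labelled library alone, Dennd2d had 2 in the non-ISC-labelled library alone, and Dennd5a had 1 against 3.

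**Figure D3:**
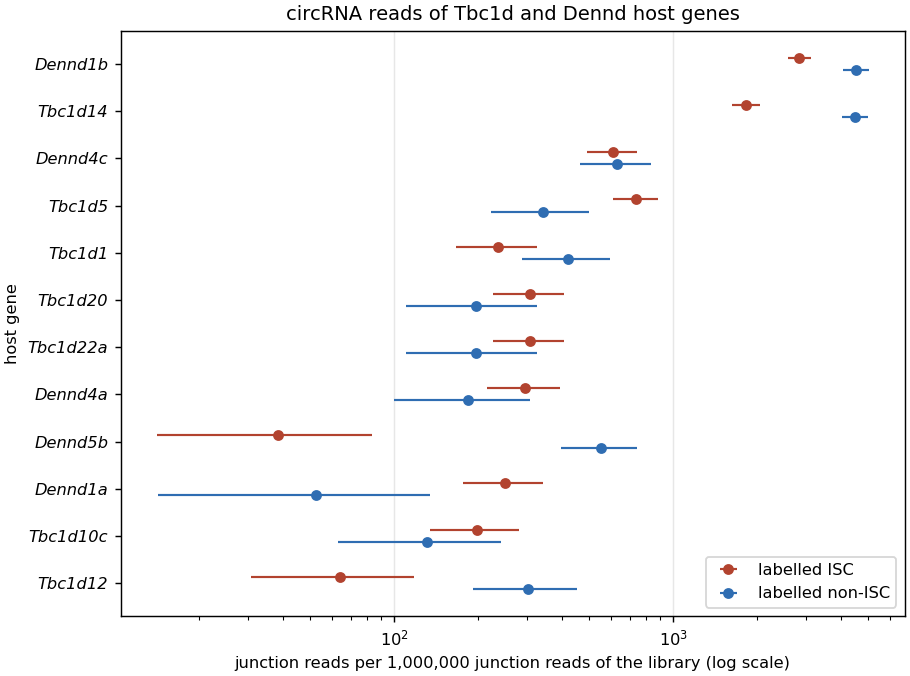
Junction reads per 1000000 junction reads of the library, on a log axis, for the 12 Tbc1d and Dennd host genes with 20 or more reads in all. Points are the ISC-labelled (red) and non-ISC-labelled (blue) libraries, and bars are 95% exact Poisson intervals for counting error. Dennd1b and Tbc1d14 stand above the other 10 genes in both libraries. The intervals of the libraries do not overlap for Dennd1b, Dennd5b, Dennd1a, Tbc1d14, Tbc1d5 and Tbc1d12. How many of all host genes have intervals that do not overlap was not counted. On RPM totals the order of the libraries turns for Dennd1b, Tbc1d14, Dennd4c and Tbc1d1.

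Among the TBC domain genes, Tbc1d14 (chromosome 5, 36490604 to 36593276, minus strand) led. Its protein binds Rab11 on recycling endosomes and is known as a regulator of autophagosome formation. Tbc1d14 had 286 reads on 19 circRNAs in the ISC-labelled library, 1827 per 1000000 (1621 to 2051), and 343 reads on 13 circRNAs in the non-ISC-labelled library, 4494 (4031 to 4995). The ratio was 0.406 (0.346 to 0.477), and the direction turned with RPM totals, at 1.14 (0.975 to 1.34). It made up 46.0% of the Tbc1d reads labelled ISC and 69.2% of those labelled non-ISC. Most of its reads were on shared circRNAs, with 261 and 336 reads on the 11 found in both libraries.

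Tbc1d12, a close relative of Tbc1d14 whose protein also binds Rab11, was lower as well. It had 10 reads against 23, levels of 63.9 (30.6 to 117) and 301 (191 to 452) per 1000000 and a ratio of 0.212 (0.0900 to 0.463), which became 0.597 (0.254 to 1.30) and lost the call with RPM totals. Most of these reads were on the circle of exons 2 to 3, with 8 against 18.

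Tbc1d5 was the TBC domain gene higher in the ISC-labelled library. Its protein restrains Rab7 on late endosomes together with the retromer complex. Tbc1d5 had 115 reads against 26, levels of 734 (606 to 882) and 341 (222 to 499) per 1000000 and a ratio of 2.16 (1.40 to 3.44) that was 6.07 (3.94 to 9.69) with RPM totals. Its leading circle of exons 10 to 13 had 64 reads and 9, a ratio of 3.47 (1.72 to 7.92), and the circle of exons 9 to 13, which shares its donor, had 24 against 2, a ratio of 5.85 (1.45 to 51.1). The 12 other Tbc1d5 circRNAs had at most 8 reads in either library. Of these, exons 9 to 14 had 8 against 4.

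The other TBC domain genes with enough reads were not called. Tbc1d1, whose protein is a relative of the insulin and energy sensor Tbc1d4, had 37 reads on 10 circRNAs and 32 on 13. Its ratio of 0.564 (0.342 to 0.935) turned to 1.59 (0.962 to 2.63) with RPM totals. Tbc1d20, a GTPase activator for Rab1 at the endoplasmic reticulum, had 48 reads against 15, a ratio of 1.56 (0.859 to 3.0). Nearly all of these were on 1 circle, exons 2 to 5 (chromosome 2, 152302152 to 152308431), with 44 against 13, or 91.7% (80.0 to 97.7) and 86.7% (59.5 to 98.3) of the gene's reads.

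Tbc1d22a, which encodes a Golgi protein, also had 48 against 15, but its leading circles differed between the libraries. Exons 6 to 8 formed a circle with 22 reads and no entry in the non-ISC-labelled library, whereas exons 2 to 4 (chromosome 15, 86234730 to 86239293) formed a circle with 4 reads against 13 and a ratio of 0.150 (0.0356 to 0.486). Over the 2 Tbc1d22a circRNAs with reads in both libraries there were 6 reads against 14, which turned the gene's ratio from 1.56 (0.859 to 3.0) to 0.209 (0.0658 to 0.579). Tbc1d10c, known as carabin and as an inhibitor of calcineurin in lymphocytes, had 31 reads against 10, a ratio of 1.51 (0.722 to 3.46). Its leading circle (chromosome 19, 4184830 to 4185506) had 26 against 8, with both ends on exon ends of AC109138.8, a longer annotated gene on the same strand that overlaps Tbc1d10c, so its assignment is uncertain. The T cell and leukocyte markers, at 7284 reads against 135, were high in the same library, and their part in the result was not tested. Tbc1d23, an adaptor at the Golgi, had 9 reads and 6, and its ratio of 0.731 (0.232 to 2.50) turned to 2.06 with RPM totals.

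A further 16 Tbc1d genes had 1 to 9 reads, 38 in the ISC-labelled library and 26 in the other over all of them. Of these, Tbc1d19 had 7 reads and Tbc1d8 had 4 in the ISC-labelled library alone, while Tbc1d17 and Tbc1d30 had 6 each in the non-ISC-labelled library alone. Tbc1d4 had entries with 0 junction reads only. Of 44 protein-coding genes in the annotation that match the naming rule, 9 had no entry under that name in either library. Among them were Tbc1d32, Tbc1d25 and Dennd4b, and entries under other names were not looked for.

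Single circRNAs were counted by the same rule. Of 34 member circRNAs with 10 or more reads in all, 10 were higher in the ISC-labelled library and 9 were lower. The shares over all 3659 circRNAs with enough reads were 32.4% and 23.0%. With RPM totals 17 were higher and 2 lower, for which the shares over all circRNAs were not computed. Of the 10 higher, 7 had no junction reads in the non-ISC-labelled library, and 3 of these 7 were listed there with 0 junction reads. Of the 9 lower, 8 had reads in both libraries. The same split was not counted over all called circRNAs. Of circRNAs with reads and a host gene, 17.0% had reads in both libraries, beside 22.6% of the members. The share was 42.9% for Dennd1b and Tbc1d14 together and 18.1% for the members without them. Low counts were common, with 49.6% of member circRNAs labelled ISC and 57.7% of those labelled non-ISC at 1 or 2 reads, beside 54.6% and 57.3% over all circRNAs.

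In Dennd1b, both libraries used the same donor, the end of exon 8 at 139062971, and differed in the acceptor joined to it. Circles closed by that donor held 91.9% (89.0 to 94.3) of Dennd1b reads in the ISC-labelled library and 92.2% (88.8 to 94.8) in the other. The circle of exons 5 to 8 had 246 reads in the ISC-labelled library and 156 in the other, or 55.4% (50.6 to 60.1) and 45.1% (39.8 to 50.5) of the gene's reads. The circle of exons 3 to 8 by annotation adds exons 3 and 4, for a spliced length of 486 nt. It had 148 and 158 reads, or 33.3% (29.0 to 37.9) and 45.7% (40.3 to 51.1). The shorter circle thus had 1.66 reads for each read of the longer one in the ISC-labelled library and 0.987 in the non-ISC-labelled library. The odds ratio was 1.68 (1.23 to 2.30), an exact interval that does not depend on library scaling, and it was 1.68 (1.08 to 2.63) with reads halved.

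The other Dennd1b circles were minor. That of exons 9 to 13 (chromosome 1, 139081173 to 139110485) took 15 reads and 16, or 3.38% (1.90 to 5.51) and 4.62% (2.67 to 7.40). Exons 6 to 8 formed a circle with 10 reads in the ISC-labelled library and no entry in the other. Among all circRNAs of the libraries the exons 5 to 8 circle ranked 64 by reads in the ISC-labelled library and 36 in the non-ISC-labelled library, and the exons 3 to 8 circle ranked 123 and 35.

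In Tbc1d14 the leading circle differed between the libraries. The circle of exons 4 to 7, 427 nt long, had 128 reads in the ISC-labelled library and 107 in the other, or 44.8% (38.9 to 50.7) and 31.2% (26.3 to 36.4) of the gene's reads. Exon 2 alone formed a circle of 742 nt with 57 and 137 reads, or 19.9% (15.5 to 25.0) and 39.9% (34.7 to 45.3). The intervals of the exon 2 shares, and those of the exons 4 to 7 shares, did not overlap. For each read of the exon 2 circle there were 2.25 reads of the exons 4 to 7 circle in the ISC-labelled library and 0.781 in the non-ISC-labelled library, an odds ratio of 2.87 (1.89 to 4.39), or 2.92 (1.60 to 5.42) with reads halved.

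**Figure D4:**
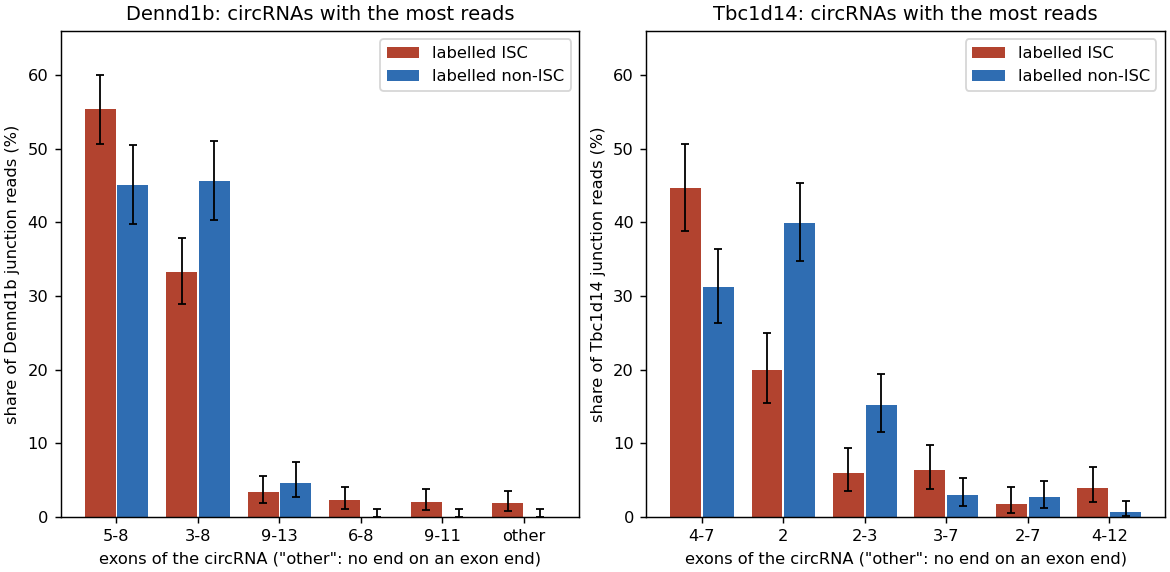
Share of the host gene's junction reads, in percent, for the 6 most read circRNAs of Dennd1b (left) and Tbc1d14 (right), with 95% exact binomial intervals. Red bars are the ISC-labelled library and blue bars the non-ISC-labelled library. For Tbc1d14 the exons 4 to 7 circle leads in red at 44.8% and the exon 2 circle leads in blue at 39.9%.

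Both the acceptors and the donors of Tbc1d14 circles differed in share. Their counts include the reads of the leading circles given above, so they are not separate evidence. Circles closed into exon 2 (acceptor at 36572037) numbered 6 and had 94 reads in the ISC-labelled library and 201 in the other, or 32.9% (27.5 to 38.6) and 58.6% (53.2 to 63.9) of reads. Circles closed into exon 4 (acceptor at 36525048) also numbered 6 and had 155 and 126 reads, or 54.2% (48.2 to 60.1) and 36.7% (31.6 to 42.1). The odds ratio of the exon 4 over the exon 2 acceptor was 2.63 (1.85 to 3.75). Of the donors, the end of exon 7 (36519273) closed 53.5% (47.5 to 59.4) of reads in the ISC-labelled library and 36.7% (31.6 to 42.1) in the other. The end of exon 2 (36571296) closed a single circle, exon 2 alone, and so had that circle's shares of 19.9% and 39.9%. The circle of exons 2 to 3 was also lower in share in the ISC-labelled library, with 17 reads against 52, or 5.94% (3.50 to 9.35) and 15.2% (11.5 to 19.4). The reads of the exon 2 circle over those of the exons 2 to 3 circle were 3.35 and 2.63, an odds ratio of 1.27 (0.656 to 2.55) whose interval holds 1.

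**Figure D5:**
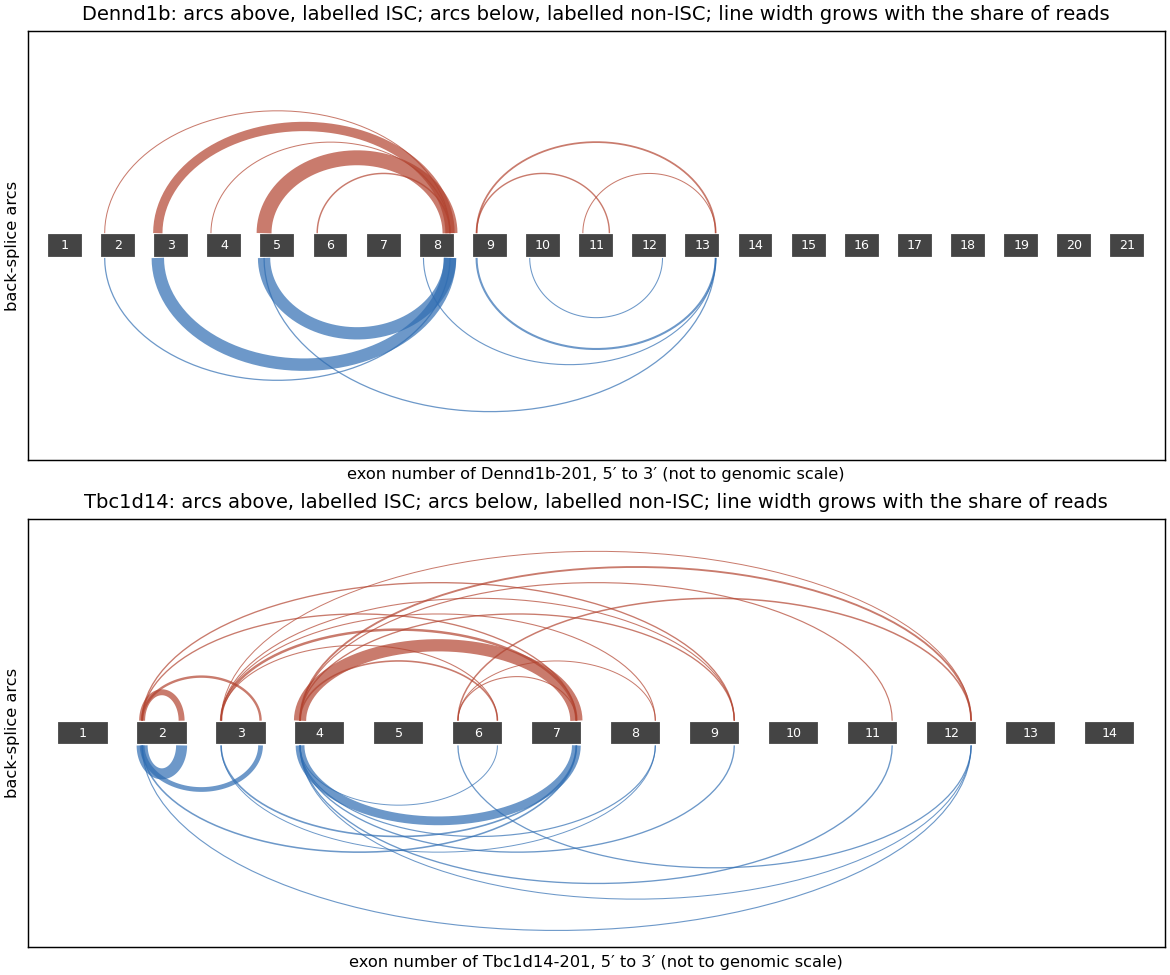
Back-splice arcs over the exons, drawn in order and not to genomic scale, of transcript 201 of Dennd1b (top) and Tbc1d14 (bottom), each arc joining the acceptor exon and the donor exon of 1 circRNA, with the ISC-labelled library above the exons and the non-ISC-labelled library below. Line width grows with the share of the gene's junction reads, and circRNAs with an end off these exon ends are not drawn. In Dennd1b the thick arcs end on exon 8 in both libraries, and in Tbc1d14 the arcs of the exon 2 and the exons 2 to 3 circles are thicker below than above.

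Features that the naming rule did not use were set beside those of all circRNAs. Of 190 member circRNAs with reads, 157, or 82.6% (76.5 to 87.7), had both ends on exon ends of 1 annotated transcript, beside 71.0% (70.4 to 71.5) of all 25530 circRNAs with reads and a host gene. Among circRNAs with 10 or more reads in all, the shares were 94.1% (80.3 to 99.3) and 91.8% (90.9 to 92.7). By annotation, the exonic member circles held a median of 4 exons and 492 nt, beside 3 exons and 475 nt over all. All 190 member circRNAs with reads, exonic or not, spanned a median of 7956 nt of genome, beside 5186. The intron upstream of the acceptor had a median length of 6356 nt beside 4794, and the intron downstream of the donor 4484 nt beside 3611. Circles whose first exon is exon 2 made up 15.9% (10.6 to 22.6) of exonic member circles and 26.2% (25.5 to 26.8) of all. Among exonic circles with 10 or more reads in all, the shares were 25.0% (11.5 to 43.4) and 35.0% (33.4 to 36.7), so that the members' interval holds the share over all. Of the 157 exonic member circles, 0 held the first exon and 0 the last exon of the transcript. This allows a share of up to 2.32% (exact interval), beside 0.232% and 0.00552% over all. A first exon has no acceptor and a last exon no donor, so this largely follows from back-splicing and is no trait of the members. Member circles of 1 host gene share exons, so they are not independent observations, and all circles include the members.

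The other genes of the Rab cycle, from lists of 10 TBC domain genes of other names, 11 DENN domain genes of other names, 21 other exchange and activating factors, 6 escort and prenylation factors and the Rab GTPases themselves, gave 28 host genes with at least 10 reads. Of these 7 were higher and 5 lower in the ISC-labelled library, beside 26.7% and 22.7% of all host genes with enough reads. With RPM totals the counts were 18 and 2, for which the shares over all host genes were not computed. The 23 Rab GTPases with reads summed to 334 reads against 91, a ratio of 1.79 (1.42 to 2.28), with 2 of 8 tested genes higher and 0 lower. The best covered were Rab2a of the early secretory pathway, with 96 reads against 24 and a ratio of 1.95 (1.24 to 3.19), Rab11a of recycling endosomes, with 61 against 17, and Rab22a, with 51 against 23, none of them called. The TBC domain genes of other names summed to 204 against 210, with 3 of 6 lower, and their ratio of 0.474 (0.389 to 0.577) turned to 1.33 with RPM totals. Rabgap1l, a Rab GTPase activator, had 85 against 98, and its ratio of 0.423 (0.312 to 0.571) turned to 1.19 with RPM totals. Evi5 had 17 against 41, a ratio of 0.202 (0.108 to 0.364) that became 0.569 (0.303 to 1.02) and lost the call with RPM totals, and Rabgap1 had 51 against 24. Rabgef1, the Rab5 exchange factor also called Rabex-5, had 124 against 97, and its ratio, 0.623 (0.474 to 0.821), fell short of 2-fold and turned to 1.76 with RPM totals. Of the 3 DENN domain genes of other names with enough reads, Madd, at 14 against 1, and Fam45a, at 13 against 0, were higher, while Sbf1, at 16 against 13, was not called. The escort factor gene Chm was higher at 27 against 1. Gdi2 had 48 against 33, and its ratio of 0.709 (0.446 to 1.14) turned to 2.00 with RPM totals.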

How the data were processed

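Ribosomal RNA-depleted, RNase R-treated total RNA of sorted intestinal cells was sequenced, with 1 library labelled ISC and 1 labelled non-ISC. FastQC, Trimmomatic 0.36 and mm9 are named in the submitters' processing notes. The deposited tables give, per the file headers, a circRNA's position, host gene, a count, a junction read count and RPM. Exon ends matched GENCODE M21 on GRCm38 and not positions shifted by 1 base, so that build is used here. The circRNA caller was not given in these sources. RPM values, as deposited, were used only for the library totals they imply.

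Junction counts were summed per host gene. Entries without a host gene were left out of host gene counts, and a missing entry was counted as 0. Ratios of shares have exact conditional 95% intervals, and shares exact Clopper-Pearson intervals, computed with SciPy 1.17.1 and pandas 2.3.3 under Python 3.11.15. PCR reads without molecular identifiers are not independent molecules, so intervals cover counting error only. Host genes with 20 or more reads in the pair of libraries were described with their leading circRNAs, and others by ranges. Members and lists were chosen with earlier results of these data known. Alternatives were other scalings, read minimums, halved reads, shared circRNAs and the count column.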

Additional observations from a re-analysis of the deposited data

Results flagged for a closer look

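In the library labelled non-ISC, 34 of the 138 Tbc1d and Dennd entries had 0 junction reads but a value in the deposited count column. Over the whole of that library, 6122 of 18324 entries had 0 junction reads, so such entries were not particular to these genes. The count-column values are a signal outside the junction reads used above. What the count column adds to the junction reads was not given in these sources. Given first are the genes with 20 or more junction reads over the libraries. Tbc1d20 carried 258 such reads on 1 entry, against 15 junction reads of the gene in that library. Dennd5b carried 183 on 4 entries, Tbc1d14 carried 91 on 1 entry and Dennd1a carried 72 on 4 entries. The values were 33 for Dennd4c, 30 for Tbc1d5, 10 for Dennd4a, 6 for Tbc1d12 and 4 for Tbc1d1. For Dennd1a and Dennd4a these entries include circRNAs counted above as higher in the library labelled ISC. Genes with fewer junction reads held the other entries of this kind, and among these the highest value was 367 on 1 entry of Tbc1d13, followed by 150 on 1 entry of Tbc1d2.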

How the results depend on the processing

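No paired analysis was possible because each group had 1 library. With the library totals implied by RPM, member host genes were 8 higher and 1 lower, member circRNAs 17 and 2, and other Rab genes 18 and 2, and the summed ratios turned to 1.95 for Dennd and 1.72 for Tbc1d. Of the member genes with 10 or more reads, Dennd1b at 1.76, Tbc1d14 at 1.14, Tbc1d1 at 1.59, Dennd4c at 2.72 and Tbc1d23 at 2.06 crossed 1. With the deposited count column scaled as RPM, the counts were 14 and 11, 50 and 40, and 34 and 12 in the same order. The summed ratios were then 1.82 for Dennd and 1.38 for Tbc1d, and Dennd1b at 1.56, Tbc1d14 at 1.19, Tbc1d12 at 1.21, Dennd4c at 4.58 and Tbc1d20 at 0.795 crossed 1 among the 12 genes with 20 or more reads. The leading circle's share labelled ISC and non-ISC became 43.5% and 31.4% for Dennd1b and 34.0% and 24.7% for Tbc1d14, so it stayed higher in the library labelled ISC. With circRNAs read in both libraries only, 1 member host gene and 3 member circRNAs were higher, as were 2 other Rab genes, the Tbc1d ratio was 0.527, and Dennd1a at 0.244 and Tbc1d22a at 0.209 (0.0658 to 0.579, called lower) crossed 1. With reads halved, 1 member host gene was higher, member circRNAs were 2 higher and 4 lower, and other Rab genes 4 and 3. With a minimum of 20 reads, member circRNAs were 4 and 5 and other Rab genes 4 and 3, and with no minimum the lower counts were 5 member host genes, 19 member circRNAs and 10 other Rab genes. Without the most read gene the summed ratio was 0.891 for Dennd and 1.07, turned, for Tbc1d. With median-ratio scaling the other Rab genes called higher were 6 in place of 7, the other counts of calls were as before, and no summed ratio or ratio of the 12 genes crossed 1 or changed its call. Shares of calls over all host genes and all circRNAs were not computed for these alternatives, so their counts stand without such a share. The cause of these changes was not tested.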

Other observations

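Junction reads of the members were even numbers more often in the library labelled ISC, in 77 of 129 circRNAs or 59.7% (50.7 to 68.2), than in the library labelled non-ISC, in 54 of 104 or 51.9% (41.9 to 61.8), with intervals that overlap. Over all circRNAs the shares were 54.0% (53.3 to 54.7) and 47.6% (46.7 to 48.5). A count of 2 was more frequent than a count of 1 among members in the library labelled ISC, with 40 circRNAs against 24. In the library labelled non-ISC the members were nearly even, at 31 against 29. Over all circRNAs a count of 2 against a count of 1 stood at 5425 against 4636 labelled ISC and 3190 against 3803 labelled non-ISC.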
